A study of Homo sapiens with 12 samples.

Results

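The genes described here are 10 transcripts of the epithelial keratin network and of the desmosomes to which it is anchored. They were taken by name from the 57167 genes of the count table labelled DU145, and by the same gene identifier from the 61860 genes of the table labelled C4-2. They comprise the keratins KRT8, KRT7, KRT18 and KRT19, the plakins PPL, EVPL and DSP, the armadillo proteins JUP and PKP3, and the desmosomal cadherin DSC2. They were chosen by their measured counts, in that PPL, KRT7 and KRT18 were lower with palbociclib than with dimethyl sulfoxide (DMSO). The changes of all 10 genes between the treatments are therefore given as a description, with no test.

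Keratins form filaments only as pairs of a type I and a type II chain. KRT8 and KRT7 are type II chains and KRT18 and KRT19 are type I chains of simple epithelia such as the luminal layer of the prostate. Desmosomes are adhesive discs in which cadherins of neighbouring cells bind each other, armadillo proteins bind the cadherin tails, and plakins tie the disc to the keratin filaments.

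Palbociclib inhibits the kinases CDK4 and CDK6, and the series is titled for their action on STING, an innate immune adaptor. Both lines come from human prostate cancer: C4-2 derives from LNCaP and grows without androgen, whereas DU145, taken from a metastasis in the brain, lacks functional RB1. The 4 groups were DU145 with palbociclib, DU145 with DMSO, C4-2 with palbociclib and C4-2 with DMSO, with 3 libraries each by the labels. RPMI-1640 medium and bovine serum were common to all of them, and the sources used here state neither dose nor duration of palbociclib. Every value of C4-2 DMSO replicate 3 was 0, so 11 of the 12 libraries were used and that group had 2. Whether replicates were independent cultures is not stated, so the SD, SE and p-values measure the spread between libraries, which may be technical. In C4-2 that spread was little more than counting error, as given under processing.

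Depth was 16108999 to 16674393 counts per library labelled DU145 and 2608851 to 3489659 per library labelled C4-2. Levels are given as CPM, the read count scaled to the library total. With 3 counts as the limit, a gene at 0 could still be present at 0.18 to 0.186 CPM in a DU145 library and at 0.86 to 1.15 CPM in a C4-2 library, which covers counting error only. Of 8 luminal prostate markers, KLK3, KLK2, ACP3 and FOLH1 had 0 counts in every library labelled C4-2, which goes against that label. Groups are therefore called by their labels. In DU145 the epithelial keratins were abundant, while CDH1 (E-cadherin) had 13 to 35 counts and EPCAM had 4 to 19 counts per library. CDH1 and EPCAM were low in C4-2 too, at 1 to 2 and 1 to 6 counts per library. The mesenchymal markers VIM, CDH2 and ZEB1 had means of 1501, 560.1 and 68.3 CPM in C4-2. In DU145 the same 3 had means of 279, 64.8 and 43.6 CPM. Of 12 leukocyte, endothelial and fibroblast markers, 3 exceeded a mean of 1 CPM in DU145 (CD14, PDGFRB and COL1A1), and PTPRC, CD3E, MS4A1 and LUM had 0 counts. Their summed level there was 60.1 to 68.2 CPM with palbociclib and 57.7 to 66.3 CPM with DMSO, but its members went different ways. CD14 rose from 0.329 to 3.70 CPM (edgeR adjusted p = 4.8e-08), COL1A1 rose (log2 fold change 0.24, adjusted p = 0.0335) and PDGFRB fell (-0.59, adjusted p = 0.000101). In C4-2 LUM and COL1A1 exceeded 1 CPM, CD68 had 0 counts, and the sum was 165.8 to 217.3 CPM with palbociclib against 253.7 to 283.4 CPM with DMSO. The part of these markers in the results below was not tested.

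Upstream sequences of KRT8, JUP and DSP are shown because these genes took 3 courses in DU145: KRT8 was lower, JUP was higher and DSP differed least. Of the 10 genes, 4 had an entry in the RefSeq promoter table (GRCh38.p14), namely KRT8, JUP, DSP and DSC2. Each line gives the 250 bases before the start, 5′ to 3′ on the gene's strand, for KRT8 at chr12:52926470-52926719 (minus strand), JUP at chr17:41786712-41786961 (minus strand, the upstream of 2 listed starts) and DSP at chr6:7541421-7541670 (plus strand). The RefSeq start is not the outer end of the deposited gene model. The KRT8 window lies inside the KRT8 span given below, and most of the JUP window lies inside the JUP span. The DSP window runs past the deposited DSP start. Capitals mark matches to the motifs listed after them.
KRT8: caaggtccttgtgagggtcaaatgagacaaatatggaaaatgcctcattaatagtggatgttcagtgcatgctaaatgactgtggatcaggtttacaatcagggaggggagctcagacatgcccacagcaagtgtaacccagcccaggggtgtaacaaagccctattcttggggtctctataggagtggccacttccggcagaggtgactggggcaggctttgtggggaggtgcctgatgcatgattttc
JUP: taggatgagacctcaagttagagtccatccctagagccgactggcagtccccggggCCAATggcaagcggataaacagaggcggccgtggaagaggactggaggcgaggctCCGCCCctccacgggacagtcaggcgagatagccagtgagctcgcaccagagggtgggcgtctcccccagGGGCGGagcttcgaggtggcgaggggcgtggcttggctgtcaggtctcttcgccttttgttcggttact
DSP: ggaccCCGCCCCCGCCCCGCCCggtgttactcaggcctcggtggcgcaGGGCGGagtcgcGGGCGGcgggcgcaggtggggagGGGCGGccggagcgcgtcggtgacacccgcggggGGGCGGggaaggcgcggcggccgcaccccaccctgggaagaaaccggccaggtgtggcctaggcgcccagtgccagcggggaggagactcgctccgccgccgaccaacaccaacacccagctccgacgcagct

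The motifs were searched on both strands of the 250 bases. They were the GC box GGGCGG, the CCAAT box, the TATA box TATAAA, the AP-1 site TGANTCA, the E2F forms TTTGGCGC and TTTCCCGC, and the Grainyhead-like site AACCGGTT. Matches of 1 motif could overlap. The DSP window held 7 GC boxes, the JUP window shown held 2 GC boxes and 1 CCAAT box, and the KRT8 window held 0 matches. The window of the other listed JUP start, not shown, also held 0 matches. Among 35116 promoter windows of that length, 42.6% held a GC box, 32.0% CCAAT, 10.7% TATAAA, 6.57% the AP-1 site, 0.55% and 1.39% the E2F forms and 0.117% the Grainyhead-like site. GC content was 50.4% for KRT8, 63.6% for JUP and 78.0% for DSP, against a median of 58.0% over all windows. A match describes letters only, and the absence of one says nothing of a factor.

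In the libraries labelled DU145, PPL, PKP3 and KRT7 showed the lowest palbociclib levels relative to DMSO, KRT18 and KRT8 were lower by less, EVPL and DSP differed little and JUP was higher. In the libraries labelled C4-2, KRT8, KRT18 and KRT19 stood at 35.4 to 40.9% of their DMSO level, and EVPL and PKP3 were also lower. Since these are bulk samples, fewer cells of a kind and less transcript per cell cannot be told apart. Of the 10 genes, 9 had enough counts to be fitted in DU145 and 6 in C4-2. Palbociclib and DMSO libraries did not overlap for 7 lower genes and 1 higher gene in DU145, where 33.4% of all fitted genes were lower and 29.4% higher in that way. In C4-2 they did not overlap for 5 lower genes and 0 higher genes, against 30.3% and 35.8% of fitted genes. The named direction chose the genes, so nothing is read from these counts.

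**Figure D1:**
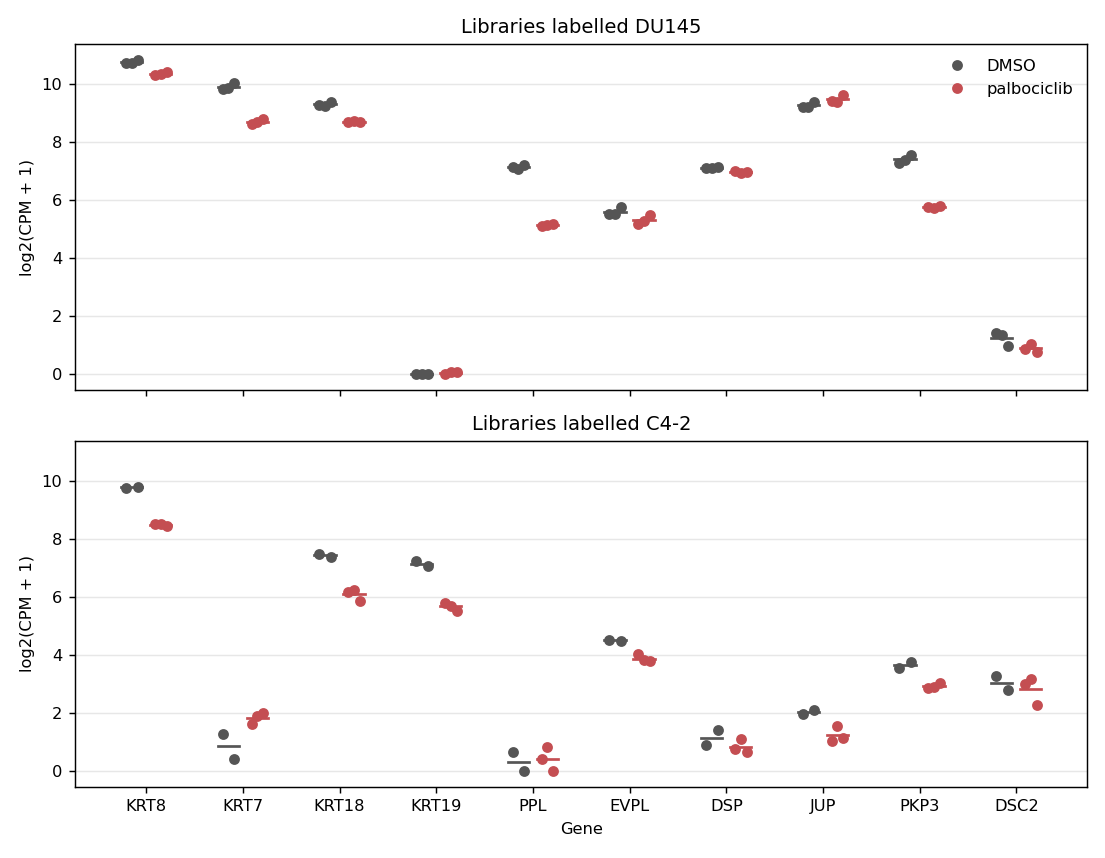
Level of each gene in each library as log2(CPM + 1), with DMSO in grey and palbociclib in red and a line at each group mean. KRT8, KRT18 and PKP3 sit lower with palbociclib in both panels, KRT19 is at 0 or 1 count in DU145, and PPL, DSP and KRT7 are near the counting limit in C4-2.

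KRT8 (ENSG00000170421, chromosome 12, 52897187 to 52949954 on hg38) was the most abundant of the 10 per kilobase of exon in both lines. Its range over the DU145 DMSO libraries overlapped that of KRT7, but within each DU145 library KRT8 was the higher. KRT7 over KRT8 per kilobase was 0.523 to 0.975 in these libraries. In DU145 KRT8 stood at 1681, 1704 and 1833 CPM in the 3 DMSO libraries and at 1264, 1309 and 1352 CPM with palbociclib. All 3 palbociclib libraries lay under every DMSO library, and the fitted log2 fold change was -0.39 (SE 0.06), a 1.31-fold difference. In C4-2 it stood at 864.6 and 887.4 CPM with DMSO and at 359.9, 366.1 and 349.9 CPM with palbociclib. The groups were far apart there, with a log2 fold change of -1.34 (SE 0.04).

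KRT18 (ENSG00000111057, chromosome 12, 52948871 to 52952901) is the type I partner of KRT8, and both genes lie head to head with 1084 overlapping bases. DU145 libraries held 623.3, 607.3 and 664.3 CPM with DMSO and 409, 420.7 and 416.5 CPM with palbociclib, with no overlap and a log2 fold change of -0.58 (SE 0.06). C4-2 libraries held 178 and 165.1 CPM with DMSO and 70.3, 74.8 and 56.5 CPM with palbociclib, again apart (-1.42, SE 0.08). KRT8 and KRT18 were thus lower together in each line. The ratio of KRT8 to KRT18 per kilobase was 1.29 ± 0.0261 with DMSO and 1.47 ± 0.0402 with palbociclib in DU145 (SD, n = 3 each), with no overlap of the groups. In C4-2 it was 2.39 ± 0.170 (n = 2) and 2.53 ± 0.323 (n = 3), within the spread of libraries.

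KRT8 and KRT18 have many processed copies, to which reads can be misassigned. In DU145 the 51 named KRT8 pseudogenes held 0.905 to 1.42% of the counts of KRT8 per library, and 67 named KRT18 pseudogenes held 0.316 to 0.959% of those of KRT18. In C4-2 the shares were 1.23 to 3.37% and 0.483 to 1.41%. KRT8P12 and KRT18P34 were the highest copies in DU145, with 986 and 81 counts over 6 libraries. The bases that KRT8 and KRT18 share by position are uncertain in both tables, since the C4-2 counting did not use strand and the DU145 setting is not given.

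KRT7 (ENSG00000135480, chromosome 12, 52232520 to 52252186), the type II keratin of ducts and glands, was a DU145 gene. Its DMSO libraries held 914, 924.8 and 1063 CPM and its palbociclib libraries 392.9, 409 and 442.2 CPM. The palbociclib level was 42.9% of the DMSO level, with a log2 fold change of -1.20 (SE 0.07) and no overlap. Per kilobase of exon, KRT7 was nearly as abundant as KRT8 in DU145 with DMSO, but in CPM the means were 967.3 and 1739. The nearness thus depends on the exon lengths used, 4093 bases for KRT7 and 6881 for KRT8. The ratio of KRT7 to KRT8 per kilobase in DU145 was 0.934 ± 0.0359 with DMSO and 0.533 ± 0.0149 with palbociclib (n = 3 each). C4-2 libraries held 5 and 1 counts with DMSO and 6, 7 and 10 counts with palbociclib, too few to be fitted in that line. KRT86, KRT87P and KRT7-AS overlap the KRT7 locus at means of 14.4, 3.51 and 5.61 CPM in DU145, against 691 CPM for KRT7.

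KRT19 (ENSG00000171345, chromosome 17, 41523617 to 41528308), the smallest type I keratin, was well above the counting limit only in C4-2. DMSO libraries held 149.9 and 132.3 CPM there and palbociclib libraries 54.7, 50.6 and 44.7 CPM. These groups were apart, with a log2 fold change of -1.56 (SE 0.09). In DU145, 4 libraries had 0 counts of KRT19 and 2 had 1 count, which is under the limit of 3 counts, so no fold is given.

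Summed over all keratin genes per kilobase, DU145 held 996.5 ± 51.5 CPM per kb with DMSO and 637.3 ± 27.5 with palbociclib (n = 3 each), and C4-2 held 321.1 ± 0.849 (n = 2) and 156.7 ± 6.33 (n = 3). In DU145 the pool of type II chains was the one further apart, at 687.0 ± 42.02 against 391.8 ± 16.0 CPM per kb, beside 309.5 ± 10.7 against 245.5 ± 11.5 for type I chains. The ratio of type II to type I was therefore 2.22 ± 0.0746 with DMSO and 1.60 ± 0.0133 with palbociclib. In C4-2 both pools were lower in similar measure, and the ratio was 1.49 ± 0.0997 and 1.57 ± 0.143. KRT8, KRT7, KRT18 and KRT19 made up 68.8 ± 0.526% of the DU145 pool with DMSO and 66.0 ± 0.829% with palbociclib. In C4-2 their share was 75.1 ± 1.67% and 60.6 ± 2.30%, with no overlap of the libraries.

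**Figure D2:**
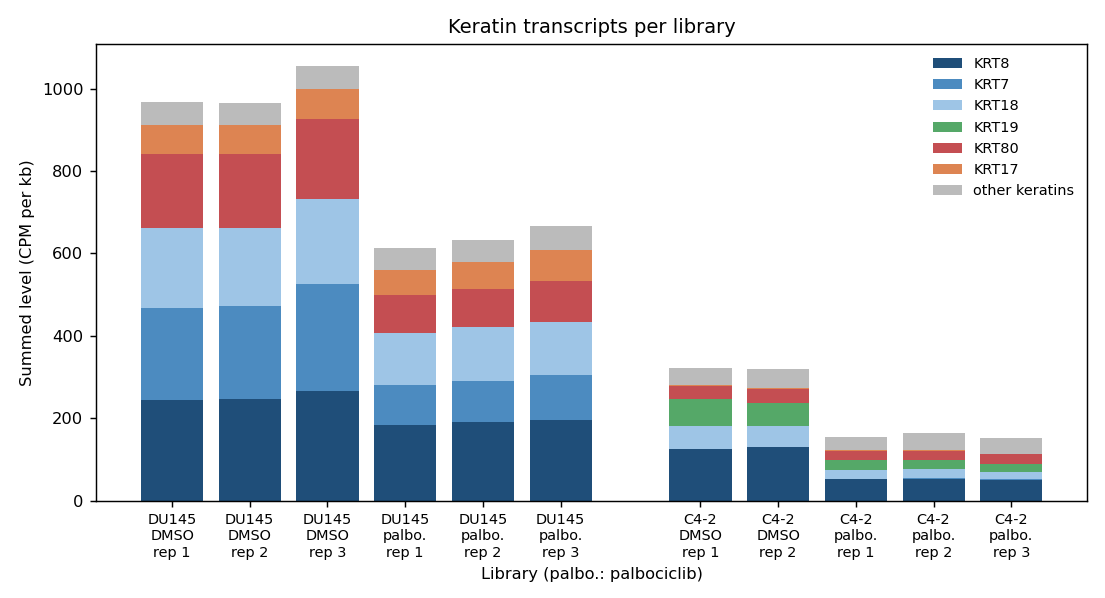
Keratin transcripts in each library, as the sum of CPM per kb of exon over all listed keratins, stacked by gene. The DU145 sum was 996.5 CPM per kb with DMSO and 637.3 with palbociclib, and the KRT7 segment went from 23.7 to 15.9% of it. KRT19 is visible in C4-2 only.

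PPL (ENSG00000118898, chromosome 16, 4882507 to 4960741) encodes periplakin, which binds keratin filaments and pairs with envoplakin under the membrane. It showed the largest difference of the 10 genes in DU145. DMSO libraries held 139, 133.6 and 149.1 CPM and palbociclib libraries 33.4, 34.8 and 35.7 CPM. The palbociclib level was 24.7% of the DMSO level, with a log2 fold change of -1.996 (SE 0.08), and the groups were far apart. In C4-2 PPL had 0 to 2 counts in each library, at or under the limit, and no fold is given.

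EVPL (ENSG00000167880, chromosome 17, 76004502 to 76027452), envoplakin, did not follow its partner in DU145. It stood at 45.2, 45.0 and 52.9 CPM with DMSO and at 35.5, 38.1 and 44.4 CPM with palbociclib. The highest palbociclib library lay just under the lowest DMSO library, and the log2 fold change was -0.25 (SE 0.10), or -0.17 without DMSO replicate 3. The ratio of PPL to EVPL per kilobase was 2.89 ± 0.126 with DMSO and 0.867 ± 0.0712 with palbociclib (n = 3 each), so periplakin transcripts outnumbered envoplakin transcripts with DMSO and not with palbociclib. In C4-2 EVPL held 21.8 and 21.6 CPM with DMSO and 15.2, 13.0 and 12.7 CPM with palbociclib, apart, with a log2 fold change of -0.71 (SE 0.18).

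DSP (ENSG00000096696, chromosome 6, 7541575 to 7586717), desmoplakin, is the obligate link from desmosome to keratin. In DU145 it held 137.4, 135.7 and 142.2 CPM with DMSO and 127.9, 121.2 and 125.8 CPM with palbociclib. The groups did not overlap, but the log2 fold change of -0.12 (SE 0.06) was the smallest in size of the 9 fitted genes. C4-2 libraries held only 2 to 5 counts of DSP, which was left unfitted there.

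JUP (ENSG00000173801, chromosome 17, 41754604 to 41786931), plakoglobin, serves in desmosomes and in adherens junctions. It was the only one of the 9 fitted genes that was higher with palbociclib in DU145, at 690.2, 669.9 and 795.2 CPM against 598.6, 587.5 and 662.4 CPM with DMSO. The lowest palbociclib library lay just over the highest DMSO library, with a log2 fold change of 0.25 (SE 0.07). C4-2 libraries held 10 counts each with DMSO and 3, 5 and 4 counts with palbociclib, too few to be fitted in that line.

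PKP3 (ENSG00000184363, chromosome 11, 392614 to 404908), plakophilin 3, binds desmosomal cadherins and desmoplakin. In DU145 it held 156.1, 166.3 and 185.9 CPM with DMSO and 54.0, 51.7 and 54.8 CPM with palbociclib, which is 31.6% of the DMSO level (log2 fold change -1.64, SE 0.08). Both armadillo genes thus went opposite ways, and the ratio of PKP3 to JUP per kilobase was 0.359 ± 0.0159 with DMSO and 0.0976 ± 0.00665 with palbociclib. In C4-2 PKP3 was at 10.6 and 12.6 CPM with DMSO and at 6.23, 6.52 and 7.11 CPM with palbociclib, apart, with a log2 fold change of -0.84 (SE 0.25).

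DSC2 (ENSG00000134755, chromosome 18, 31058840 to 31102522), desmocollin 2, was the least abundant fitted gene in DU145. Its libraries there held 27, 25 and 16 counts with DMSO and 14, 18 and 12 counts with palbociclib, and the groups overlapped (-0.63, SE 0.34). C4-2 libraries held 30 and 18 counts with DMSO and 20, 21 and 13 counts with palbociclib, also overlapping (-0.32, SE 0.31). The C4-2 value rests on single libraries, at -0.02 without DMSO replicate 1, -0.03 without palbociclib replicate 3, -0.55 without DMSO replicate 2 and -0.52 without palbociclib replicate 2.

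**Figure D3:**
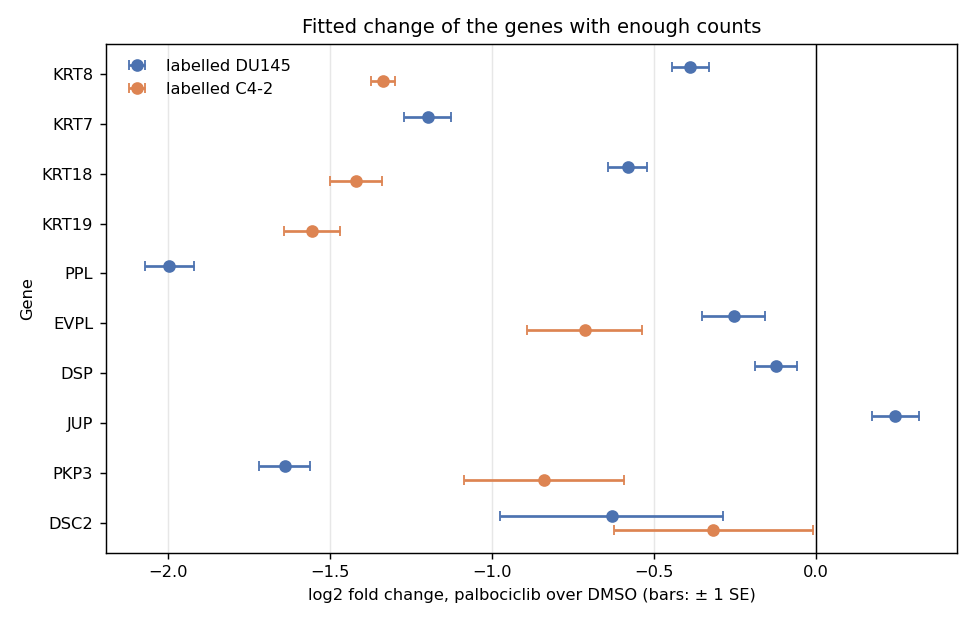
Fitted log2 fold change of palbociclib over DMSO for each gene with enough counts (9 in DU145, 6 in C4-2), with bars of 1 SE. PPL at -1.996 and PKP3 at -1.64 are furthest from 0 in DU145, KRT19 at -1.56 is furthest in C4-2, and JUP in DU145 is the only point above 0.

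By level per kilobase with DMSO, the order in DU145 was KRT8 (252.8 ± 11.9 CPM per kb), KRT7 (236.3 ± 20.3), KRT18 (196.3 ± 9.13), JUP (124.7 ± 8.18), PKP3 (44.7 ± 3.996), PPL (18.3 ± 1.02), DSP (13.7 ± 0.337), EVPL (6.35 ± 0.600), DSC2 (0.112 ± 0.0298) and KRT19 with 0 counts (SD, n = 3). KRT8 and KRT7 overlapped between libraries, though KRT8 was the higher within each, and the other neighbours did not overlap. The order in C4-2 was KRT8 (127.3 ± 2.34), KRT19 (60.4 ± 5.32), KRT18 (53.3 ± 2.82), PKP3 (3.06 ± 0.373), EVPL (2.88 ± 0.0212), JUP (0.625 ± 0.0644) and DSC2 (0.583 ± 0.149, n = 2), with KRT7, DSP and PPL under these at 0 to 5 counts per library. PKP3 overlapped EVPL, and JUP overlapped DSC2. The tables were counted separately, so levels are not compared by a test between lines.

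The difference of responses, DU145 log2 fold change minus C4-2 log2 fold change in a joint fit, contains the contrasts that chose the genes and is also only described. It was 0.98 (SE 0.07) for KRT8 and 0.87 (SE 0.11) for KRT18, which were lower by more in C4-2. For PKP3 it was -0.76 (SE 0.25), with the larger difference in DU145. EVPL stood at 0.495 (SE 0.21) and DSC2 at -0.29 (SE 0.48).

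Beyond these 10 genes, 163 other genes of keratins, junctions, plakins, the cornified envelope, epithelial regulators and intermediate filaments were listed. In DU145, 52 of 79 with enough counts passed edgeR's quasi-likelihood test at an adjusted p of 0.05 (65.8%, against 58.1% of all 15361 genes), with 38 lower and 14 higher. Without both libraries numbered 3 the count was also 52 (37 lower and 15 higher), but only 49 of these were the same genes. Lower and higher calls made up 29.2% and 28.8% of all genes. The median log2 fold change was -0.30, against -0.01 over all genes. The related lists are also chosen with results known, so nothing is called particular to them. In C4-2, 39 of 58 passed (67.2%, against 51.8% of 11943 genes), with 22 lower and 17 higher, where 26.6% and 25.2% of all genes were called, and the median was -0.08 against 0.00. The responses of the lines differed for 33 of 96 genes (34.4%, against 33.4% of 18139 genes) by the interaction test, with 19 lower and 14 higher in DU145 than in C4-2, where 15% and 18.4% of all genes were.

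Of the type II keratins other than KRT7 and KRT8, all 4 tested in DU145 fell, where 29.2% of all genes were called lower. They were KRT80 (log2 fold change -0.94, SE 0.06), KRT81 (-1.45, SE 0.17), KRT86 (-1.06, SE 0.13) and KRT83, at 20 to 47 counts with DMSO and 0 to 4 with palbociclib. KRT83 passed the filter only through its DMSO libraries, so its direction was largely set in advance and nothing is read from it. KRT80 also fell in C4-2 (-0.57, SE 0.07), as did KRT81 (-0.76, SE 0.13), and the third gene tested there, KRT79, had -0.44 (edgeR adjusted p = 0.374). Of all genes, 26.6% were called lower in C4-2. KRT81, KRT83 and KRT86 are close relatives, and their reads may be split between them. The span of KRT86 also overlaps that of KRT7 by 2887 bases on the same strand. Whether the fall of KRT86 stands apart from that of KRT7 was not tested. Of 6 type I keratins tested in DU145, KRT16 fell (-1.56, SE 0.34), while KRT10 (0.32, SE 0.07) and KRT34 (0.76, SE 0.20) rose, and KRT17, at 214.3 CPM, had -0.07 (edgeR adjusted p = 0.439). Type I calls made up 50% of the tested genes in DU145 and 33.3% in C4-2, against 58.1% and 51.8% of all genes. In C4-2 KRT10 rose (0.41, SE 0.14) among 3 tested, a call lost without DMSO replicate 1 (0.25, edgeR adjusted p = 0.273) and with DESeq2 (adjusted p = 0.135).

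By position, the keratin cluster of chromosome 12 holds KRT80 at 40.5 kb and KRT81 at 33.7 kb from KRT7, and both fell in both lines as given above. The nearest tested gene beyond KRT18, EIF4B, a translation factor at 53.3 kb, rose in DU145 (0.25, SE 0.05, edgeR adjusted p = 0.00079) and had -0.09 in C4-2 (adjusted p = 0.185). On chromosome 17, the nearest tested genes above JUP were P3H4 (0.09, edgeR adjusted p = 0.335 in DU145) and FKBP10 (0.27, adjusted p = 0.00296), both of collagen maturation, and both rose in C4-2 (0.56 and 0.46). EIF1, a translation factor on the other side of JUP at 61.9 kb, fell in DU145 (-0.21) and rose in C4-2 (0.39). Beside KRT19 in C4-2, KRT15 at 1.1 kb had -0.495 (edgeR adjusted p = 0.238) and KRT17 at 91.1 kb had -0.22 (adjusted p = 0.594). Beyond EIF4B in C4-2, TNS2, tensin 2, at 94.1 kb from KRT18, fell (-1.68, adjusted p = 5.75e-10).

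Of 10 other desmosome genes, 3 were tested in DU145 and 2 in C4-2. Calls made up 66.7% and 100% of those tested, against 58.1% and 51.8% of all genes. DSG2, the desmosomal cadherin desmoglein 2, rose in both lines, by 0.27 (SE 0.08; 161.8 ± 17.2 against 136.8 ± 5.99 CPM) in DU145, where the libraries overlapped, and by 0.20 (SE 0.04; 499.6 ± 17.8 against 419.9 ± 3.91 CPM) in C4-2. PERP, a p53 target that lies in desmosomes, rose in C4-2 (0.39, SE 0.07) and had -0.07 in DU145 (edgeR adjusted p = 0.331), and this difference between lines passed (-0.42, adjusted p = 0.000882). PKP2 fell in DU145 (-0.43, SE 0.17, adjusted p = 0.0346), a call lost without palbociclib replicate 2 (adjusted p = 0.107) or 3 (0.0821), without DMSO replicate 1 (0.0647) or 3 (0.135), without both libraries numbered 3 (0.204) and with DESeq2 (0.147). The abundant desmosomal cadherin and the plakophilin PKP3 described above thus differed in direction in both lines.

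The 4 other plakins were tested in both lines. PLEC, plectin, which links filaments to hemidesmosomes and other anchors, fell in DU145 (-0.54, SE 0.08) and rose in C4-2 (0.22, SE 0.03). MACF1, which links actin to microtubules, went the other way, rising in DU145 (0.30, SE 0.06) and falling in C4-2 (-0.50, SE 0.03). EPPK1, epiplakin, fell in DU145 (-0.57, SE 0.10), while DST passed in neither line (edgeR adjusted p = 0.37 and 0.155). The cornified envelope list, in which PPL and EVPL have their known role in skin, was mostly absent, with 3 of 16 genes tested in DU145 and 2 in C4-2. TGM1, the transglutaminase that crosslinks the envelope, fell in DU145 (-1.03, SE 0.18), and FLG, filaggrin, fell in C4-2 (-0.90, SE 0.06; 134.7 against 243.2 CPM on average, with no overlap). KAZN, kazrin, rose in C4-2 (0.33, SE 0.12, edgeR adjusted p = 0.0172), a call lost with DESeq2 (0.158), when DMSO replicate 1 was left out (0.145) and when palbociclib replicate 1 was (0.115).

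Adherens junction genes fell in 5 of 13 cases and rose in 1 in DU145, and fell in 5 of 10 and rose in 1 in C4-2. Calls thus made up 46.2% of the list in DU145, against 58.1% of all genes, and 60.0% in C4-2, against 51.8%. PKP4 (-0.51, SE 0.07), CDH2 (-0.40, SE 0.07) and NECTIN1 (-0.45, SE 0.11) fell and CTNNA1 (0.32, SE 0.06), alpha-catenin, rose in DU145. VCL (-0.41, SE 0.03), CTNNB1 (-0.36, SE 0.03), NECTIN1 (-1.05, SE 0.10) and NECTIN3 (-0.42, SE 0.08) fell in C4-2, and CDH2 (0.15, SE 0.04), N-cadherin, was the gene that rose.

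Tight junction genes fell in 9 of 16 cases and rose in 4 in DU145, and fell in 2 of 12 and rose in 4 in C4-2. Calls made up 81.2% of the list in DU145, against 58.1% of all genes, and 6 of 12 in C4-2, near the 51.8% of all genes. CLDN7 (-1.70, SE 0.09), PATJ (-0.64, SE 0.08), PALS1 (-0.48, SE 0.07), PARD3 (-0.28, SE 0.07) and F11R (-1.32, SE 0.20) fell in DU145, and CLDN12 rose there (0.55, SE 0.09). CLDN1 rose in DU145 (0.89, SE 0.12) and in C4-2 (0.81, SE 0.05). CLDN2, a pore-forming claudin, fell in C4-2, from 52 to 56 counts with DMSO to 1 to 5 with palbociclib. It passed the filter only through the DMSO libraries, so nothing is read from its direction. PARD3 (0.27, SE 0.06), CLDN12 and F11R were the other genes that rose in C4-2. The CLDN12 call (0.35, edgeR adjusted p = 0.00595) was lost without DMSO replicate 2 (0.16, adjusted p = 0.322) and with DESeq2 (0.076). The F11R call (0.44, adjusted p = 0.0145) was lost without palbociclib replicate 2 (0.0647), without DMSO replicate 1 (0.0709) or 2 (0.0661) and with DESeq2 (0.141).

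Of 10 epithelial membrane genes tested in DU145, 4 fell and 2 rose, among them ST14, the protease matriptase (-1.52, SE 0.12), its inhibitor SPINT2 (-2.34, SE 0.45, at 21 to 43 counts with DMSO and 2 to 11 with palbociclib), MUC1 (-0.44, SE 0.07) and AP1M2, an adaptor of basolateral sorting, which rose (1.04, SE 0.08). In C4-2, 2 of 5 fell and 2 rose. AP1M2 fell (-1.04, SE 0.24) and CDCP1 rose (0.41, SE 0.03) there. Calls made up 60.0% and 80.0% of the list, against 58.1% and 51.8% of all genes. The other calls in C4-2 were weak: MAL2 (0.29, edgeR adjusted p = 0.0368) and MUC1 (-1.09, adjusted p = 0.0402). MAL2 was lost without palbociclib replicate 2 (0.0879) or 3 (0.142), DMSO replicate 1 (0.253) or 2 (0.0567), and MUC1 without palbociclib replicate 1 (0.114) or 2 (0.134), DMSO replicate 1 (0.268) or 2 (0.086). With DESeq2 the adjusted p was 0.24 for MAL2 and 0.18 for MUC1.

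The list of epithelial transcription factors also holds the splicing regulators ESRP1 and ESRP2. Its genes fell in 6 of 7 cases in DU145 and 0 rose, where 29.2% of all genes were called lower and 28.8% higher. KLF4 (-1.06, SE 0.07), TFAP2A (-0.67, SE 0.07), ELF3 (-0.67, SE 0.08) and TFAP2C (-0.43, SE 0.08) were among them, as was ESRP2 (-0.38, SE 0.10). In C4-2, 2 of 5 fell, ELF3 (-0.81, SE 0.21) and TFAP2C (-1.30, SE 0.30), and 2 rose, KLF4 (0.81, SE 0.14) and TFAP2A (0.63, SE 0.25). Calls there made up 80% of the tested genes, against 51.8% of all genes. The TFAP2A call in C4-2 was lost without palbociclib replicate 1 (0.46, edgeR adjusted p = 0.176) or 2 (0.0699), without DMSO replicate 2 (0.226), without a filter (0.0529) and with DESeq2 (0.178). GRHL2, which activates junction genes in many epithelia, had 0 to 2 counts in each DU145 library. Of 6 repressors of epithelial genes, 2 rose and 2 fell in DU145, and 2 rose and 1 fell among 5 tested in C4-2. Calls made up 66.7% and 60% of the tested repressors, against 58.1% and 51.8% of all genes. SNAI1 (0.76, SE 0.10) and ZEB1 (0.40, SE 0.10) rose in DU145 and TWIST1 fell (-0.98, SE 0.15). TWIST2 also fell there (-0.30, SE 0.10), a call lost without palbociclib replicate 1 (edgeR adjusted p = 0.0875) or 2 (0.078), without DMSO replicate 1 (0.0946) and with DESeq2 (0.0616). In C4-2 SNAI2 (1.07, SE 0.11) and ZEB2 (0.56, SE 0.04) rose and TWIST2 (-0.42, SE 0.10) fell.

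Other intermediate filament genes fell in 6 of 7 cases in C4-2, where 26.6% of all genes were called lower. They included the lamins LMNB1 (-2.24, SE 0.07), LMNB2 (-1.37, SE 0.05) and LMNA (-0.74, SE 0.04) and vimentin, VIM (-0.46, SE 0.03), so that KRT8, KRT18 and KRT19 were not the only filament transcripts at a lower level. NEFM, a neurofilament chain, was the gene that rose (1.27, SE 0.30). In DU145, 3 of 7 fell, namely SYNM, synemin (-1.08, SE 0.08), LMNB1 (-0.27, SE 0.06) and NES, nestin (-1.002, SE 0.30), and LMNA rose (0.29, SE 0.06). Calls in DU145 made up 57.1% of the tested genes, near the 58.1% of all genes. The NES call was lost without both libraries numbered 3 (-0.85, edgeR adjusted p = 0.0507). VIM had -0.14 there (edgeR adjusted p = 0.0581), and with the replicate number as a block it passed (adjusted p = 0.00353).

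**Figure D4:**
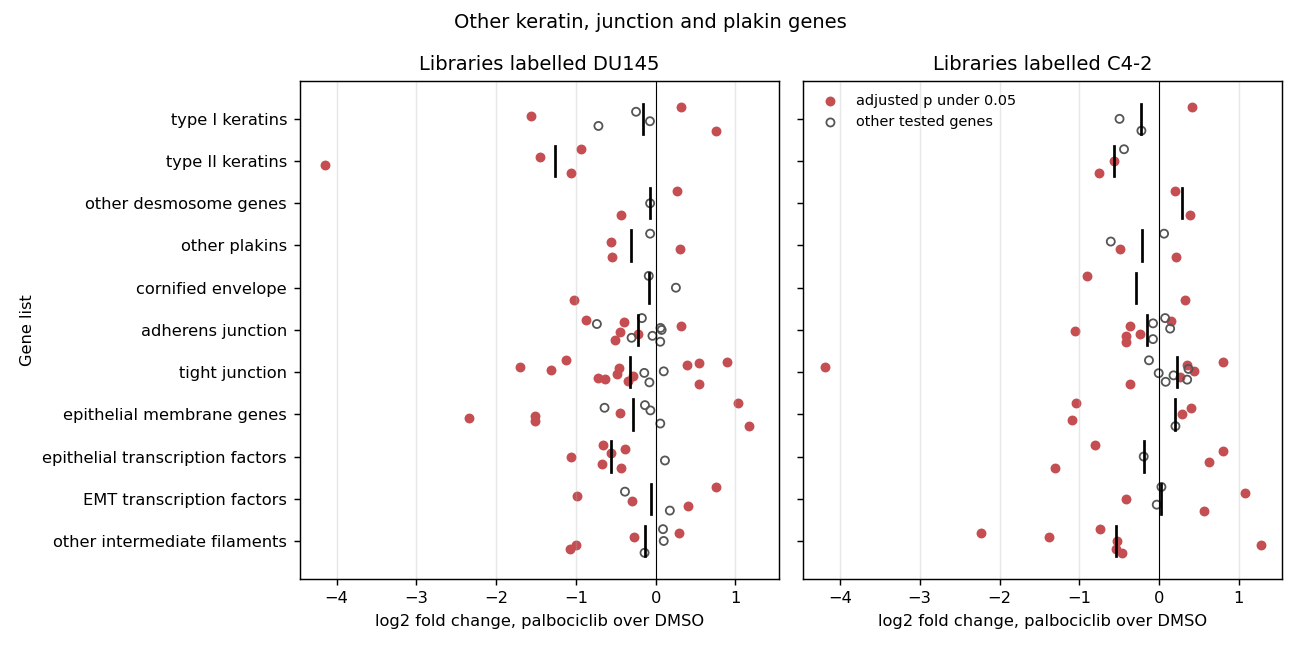
Log2 fold change of palbociclib over DMSO for each tested gene outside the 10, by list, with filled points for edgeR's adjusted p under 0.05 and a black line at each list's median. In DU145 the medians of type II keratins (-1.26) and epithelial transcription factors (-0.56) are the lowest, and in C4-2 those of type II keratins (-0.57) and other intermediate filaments (-0.54). The type II keratins of DU145 include KRT83, which passed the filter through DMSO alone. The epithelial transcription factor list includes the splicing regulator ESRP2.

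Across libraries, the genes most like PPL in DU145 were SLC22A4, TCF19 and AARS1, with Pearson's r of log2(CPM + 1) of 0.9999, 0.9998 and 0.9997 over 6 libraries. So many genes separate the groups that 1853 of 11065 had r above 0.95 with PPL. Over all 11 libraries, centred within each line, KRT18 was most like STARD8 (0.991), RIN2 (0.990) and CIT (0.989), and KRT7 was most like FAM210B (0.985), ALDH6A1 (0.979) and MIF4GD (0.977). These r values come from libraries that fall into treatment groups, and depth differed between the lines. KRT7 rests on 1 to 10 counts per library in C4-2.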

How the data were processed

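The authors deposited raw counts per gene in 1 table per line. Per the file headers, featureCounts 2.0.1 gave the C4-2 counts, from read pairs on exons of Ensembl annotation 107 and with no strand setting, although per the labels the library kit is directional. How the DU145 reads were aligned and counted is not given in the sources used here; hg38 is the build in the submitters' processing notes. Coordinates and exon lengths (used for CPM per kb in both lines) are those the authors deposited with the DU145 table. Levels, ratios between genes and orders per kilobase depend on these lengths, for example 6881 bases for KRT8 and 3218 for KRT18.

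Counts were fitted with edgeR 4.0.16 in R 4.3.3 (filterByExpr with a minimum count of 10, TMM scaling, quasi-likelihood F test, Benjamini-Hochberg adjustment over all genes), each line alone and in a joint fit for the interaction of line and treatment. SE values were derived from the coefficient and its F statistic. The filter could be passed through a single group. KRT83, KRT16 and SPINT2 in DU145, and CLDN2 and MUC1 in C4-2, passed through DMSO only, and CD14 in DU145 through palbociclib only. The direction of these genes was largely set by the filter, so nothing is read from it, though counts and medians of the lists include them. DESeq2 1.42.0, other scalings, other filters, a replicate block and leaving out libraries were alternatives. The scripts were tested on simulated data.

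The 10 genes and all lists were chosen with earlier results of these data known. By rule, up to 4 called genes per list and line with the smallest adjusted p were named (the 2 most abundant where none was called), besides the 10 genes, their neighbours, named pseudogenes and the 3 genes most like PPL, KRT7 and KRT18; other genes were chosen after their values were seen. In DU145, libraries of the same number deviated together (r = 0.175, 0.268 and 0.504 for numbers 1, 2 and 3 over 10987 genes), so the numbers were treated as possible pairs. Unlike numbers 1 and 2 correlated too (0.29 and 0.121), whereas number 3 went against both (-0.22 to -0.411), so this shows number 3 apart rather than 1-to-1 pairs. In C4-2 r was -0.02 and 0.00 for numbers 1 and 2. Within groups, the chi-square of counts over its degrees of freedom was 1.14 to 1.18 in C4-2. In DU145 it was 2.36 to 8.34, highest in pairs with replicate 3. No library was thus an identical copy of another. A value of 1 is counting error alone, so the C4-2 libraries of a group differed by little more than that. The SE and p-values of C4-2 thus measure mostly counting error, and whether its libraries were separate cultures was not tested. Likeness used a mean of at least 5 CPM and a pseudocount of 1. Part of the luminal marker list is not reported here.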

Additional observations from a re-analysis of the deposited data

Results flagged for a closer look

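The response of several genes differed between lines by the interaction test (DU145 log2 fold change minus that of C4-2, edgeR adjusted p under 0.05). Among keratins and plakins these were KRT80 (-0.33), KRT81 (-0.66), PLEC (-0.73) and MACF1 (0.83). Among desmosome and other junction genes they were PERP (-0.42), CDH2 (-0.52), CTNNA1 (0.43), CTNNB1 (0.45), VCL (0.50), NECTIN1 (0.63), NECTIN3 (0.41), PKP4 (-0.40), PARD3 (-0.51), PATJ (-0.68), PALS1 (-0.64), F11R (-1.73) and PARD6B (-1.04). Membrane genes and regulators were AP1M2 (2.11), CDCP1 (-0.51), SPINT2 (-2.49), SPINT1 (-4.13), KLF4 (-1.83), TFAP2A (-1.27), TFAP2C (0.91), SNAI1 (0.76), SNAI2 (-1.43), ZEB1 (0.46) and ZEB2 (-0.35). SPINT1 had a mean of only 0.144 CPM in DU145, under the counting limit. How the interaction calls of F11R, PARD6B and SPINT1 depend on the processing is not given below. Filament genes were LMNA (1.06), LMNB1 (2.0), LMNB2 (1.51), VIM (0.36) and SYNM (-0.50).

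For KRT7 (-2.60) and JUP (1.5) every palbociclib library lay on one side of the DMSO libraries in DU145 and on the other side in C4-2. These differences were not tested, and both genes had 1 to 10 counts per library in C4-2, near or under the limit of 3 counts. Without C4-2 DMSO replicate 1 the KRT7 value was -4.05, and without C4-2 DMSO replicate 2 it was -1.95.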

How the results depend on the processing

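The numbers of called genes of the related lists stayed within 1.5 times of those reported under all alternatives, at 47 to 57 in DU145, 30 to 39 in C4-2 and 26 to 34 for the interaction. Leaving out single libraries, or in DU145 both numbered 3, gave 49 to 55, 33 to 38 and 26 to 33. With the replicate block the counts were 56 in DU145, 38 in C4-2 (palbociclib replicate 3 left out as unpaired) and 34 for the interaction. In DU145 the block lost 0 calls and added AFDN, SNAI2, VIM and LMNB2. All 15 fitted changes of the 10 genes kept their sign over 180 alternative values. PPL in DU145 ranged from -2.04 to -1.94, KRT7 from -1.25 to -1.12, KRT18 from -0.62 to -0.54, JUP from 0.17 to 0.31 and EVPL from -0.35 to -0.17. Of the interaction calls, NECTIN3 was lost in 12 of 16 alternatives and ZEB1 in 6. Without C4-2 DMSO replicate 1, edgeR's adjusted p was 0.105 for KRT81, 0.0605 for SYNM and 0.0517 for ZEB2; without C4-2 DMSO replicate 2 it was 0.20 for SNAI1, 0.0942 for TFAP2C and 0.0561 for ZEB2. KRT81 was also lost without C4-2 palbociclib replicate 2 (0.103) or DU145 palbociclib replicate 1 (0.0578), and TFAP2C without C4-2 palbociclib replicate 1 (0.0758) or 3 (0.0643) and with the block (0.0541). The cause was not tested. Depth limits C4-2: KRT7, PPL, DSP and JUP could not be fitted there.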
